A study of Danio rerio with 10 samples.

Results

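At 18 hours after injury (hpi), the lateral rectus muscle of adult zebrafish held 3 histone marks that were mapped by chromatin immunoprecipitation and sequencing (ChIP-seq): acetylation of histone H3 at lysine 27 (H3K27Ac), trimethylation at lysine 4 (H3K4me3) and trimethylation at lysine 27 (H3K27me3). These 3 libraries, out of 10 in the series, are set side by side here, and they comprise 61310 called intervals: 28964 of H3K27Ac, 17586 of H3K4me3 and 14760 of H3K27me3. The lateral rectus is one of the muscles that move the eye, and about 50% of it was cut out before the tissue was collected. Material of 200 fish was pooled, named wild type in the study's design text; the growth protocol names both wild-type and α-actin::EGFP fish, 4 to 18 months old. The α-actin promoter drives EGFP in muscle, and the share of transgenic fish in the pool was not stated. Each mark had 1 library, so there is no replicate, no spread between animals and no test. Intervals in brackets below are exact (Clopper-Pearson) 95% binomial confidence intervals, which cover counting error only.

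H3K27Ac is placed by acetyltransferases such as p300 and CBP at active promoters and enhancers. H3K4me3 is placed by COMPASS-type methyltransferases at promoters, many of them rich in CpG dinucleotides. H3K27me3 is placed by Polycomb repressive complex 2 (PRC2) over silent genes, in particular those of developmental transcription factors. A single lysine 27 cannot carry an acetyl group and 3 methyl groups at the same time, whereas lysine 4 and lysine 27 can be methylated together, and promoters with H3K4me3 and H3K27me3 are called bivalent in stem cells. In pooled tissue, 2 marks at 1 place can sit on the same nucleosomes, on the 2 alleles or in different cells, and these cannot be told apart here.

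The lists differed in shape as well as in number. The acetylation intervals had a median length of 2800 bp and covered 111.2 Mb, those of H3K4me3 had 2600 bp and 51.9 Mb, and those of H3K27me3 had 5200 bp and 96.7 Mb. H3K27me3 also had the longest single interval, 145600 bp, against 72400 bp for H3K27Ac and 18800 bp for H3K4me3. The strength of an interval is given as its average tag pileup, the deposited mean number of overlapping sequenced fragments along it. The median interval had 13.9 in the H3K27Ac library, 31.7 in the H3K4me3 library and 9.52 in the H3K27me3 library. How the authors scaled libraries to each other was not stated and the depth is unknown, so levels are compared only within a mark. H3K4me3 lay nearest to genes: 76.3% of its intervals had their summit within 1000 bp of a gene start, against 39.8% of the H3K27Ac intervals and 31.0% of the H3K27me3 intervals.

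H3K4me3 and H3K27Ac were found together far more often than either was found with H3K27me3. Of the H3K4me3 intervals, 82.0% (81.4 to 82.5) overlapped an H3K27Ac interval by at least 1 bp and 32.9% (32.2 to 33.6) overlapped an H3K27me3 interval. Of the H3K27Ac intervals, 50.5% (49.9 to 51.1) met H3K4me3 and 19.8% (19.3 to 20.2) met H3K27me3. Of the H3K27me3 intervals, 34.9% (34.1 to 35.7) met H3K27Ac and 36.6% (35.8 to 37.3) met H3K4me3. In sequence, H3K27Ac and H3K4me3 shared 35.7 Mb, H3K27Ac and H3K27me3 shared 16.8 Mb, and H3K4me3 and H3K27me3 shared 12.0 Mb. The 16.8 Mb are 15.1% of the sequence under H3K27Ac and 17.4% of that under H3K27me3.

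Strength moved with the company an interval kept. H3K4me3 intervals that met H3K27Ac had a median average pileup of 36.8 and those that did not had 13.6, while their median lengths were 3000 and 1400 bp. H3K4me3 intervals that met H3K27me3 had a median of 24.5, against 36.0 for those that did not. H3K27me3 intervals were stronger where they met H3K4me3 (median 11.1) than where they did not (8.81). The quartiles over all H3K27me3 intervals were 7.835 and 12.37. Longer intervals have more room to meet another mark, and the part of length in these shares was not tested.

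Joined where they overlapped, the intervals made 38828 separate places. H3K27Ac alone accounted for 12932 places, H3K27Ac with H3K4me3 for 9631, H3K27me3 alone for 8168 and all 3 marks for 4231. The rarer kinds were H3K4me3 alone (1681 places), H3K4me3 with H3K27me3 (1269) and H3K27Ac with H3K27me3 but no H3K4me3 (916). Places with all 3 marks covered 41.9 Mb, nearly as much as the 42.9 Mb of places with H3K27Ac and H3K4me3, since they were longer (median 8000 bp against 3400 bp).

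At gene starts the order changed. A gene was given a mark when the nearest summit of that mark lay within 1000 bp of its start, and 16848 genes had at least 1 mark by this rule: 73.8% of them had H3K27Ac, 85.2% had H3K4me3 and 27.9% had H3K27me3. H3K27Ac with H3K4me3, the arrangement of active promoters, was found at 9959 genes, or 59.1%. H3K27me3 alone marked 1819 genes (10.8%), all 3 marks 1787 genes (10.6%), H3K4me3 alone 1587 genes (9.42%), H3K4me3 with H3K27me3 1015 genes (6.02%) and H3K27Ac alone 603 genes (3.58%). H3K27Ac with H3K27me3 and without H3K4me3 was found at 78 genes, or 0.463%. The window set some of these counts: all 3 marks were found at 1035 genes (6.92%) within 500 bp and at 5098 genes (25.3%) within 5000 bp, H3K27Ac alone at 873 genes (5.83%) within 500 bp, H3K4me3 alone at 1044 genes (5.17%) within 5000 bp, and H3K27Ac with H3K27me3 at 186 genes (0.921%) within 5000 bp. In 99.7% of the H3K4me3 and H3K27me3 genes and 97.5% of the genes with all 3 marks, the start intervals overlapped by at least 1 bp. The rule itself favours such overlap, since it puts the summits within 1000 bp of the same start. These shares are therefore no separate evidence that the marks lie together. Intervals just inside the limit (901 to 1000 bp) and just outside it (up to 1100 bp) had like strength, with H3K4me3 medians of 34.5 inside and 36.1 outside and H3K27me3 medians of 11.1 inside and 10.9 outside.

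The deposited distances run from an interval's summit, so a broad interval that covers a gene start while its summit lies far away is missed by this rule. Gene starts could be placed from the summits and distances for 23007 of the 23811 genes that the lists name, and 18240 of these starts lay inside an interval of at least 1 mark. Of 3090 genes with only 1 record, the 2535 with the same cover at both possible positions were placed and the others left out. Placement therefore depended in part on cover itself. H3K27me3 covered 7138 starts (39.1%), and only 61.9% of those starts had its summit within 1000 bp; the same share was 89.6% of the 12929 starts covered by H3K27Ac (70.9%) and 92.9% of the 14591 starts covered by H3K4me3 (80.0%). By cover, H3K27me3 alone held 2943 starts (16.1%), all 3 marks held 2731 (15.0%), H3K27Ac with H3K4me3 held 9492 (52.0%), H3K4me3 with H3K27me3 held 1243 (6.81%), H3K4me3 alone held 1125 (6.17%), H3K27Ac alone held 485 (2.66%) and H3K27Ac with H3K27me3 held 221 (1.21%). Combinations by cover are given below for many of the named genes and lists. Where none is given, a gene may differ by cover or its start could not be placed. The starts of brf1a, hace1 and slc22a23, named below, could not be placed.

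**Figure D1:**
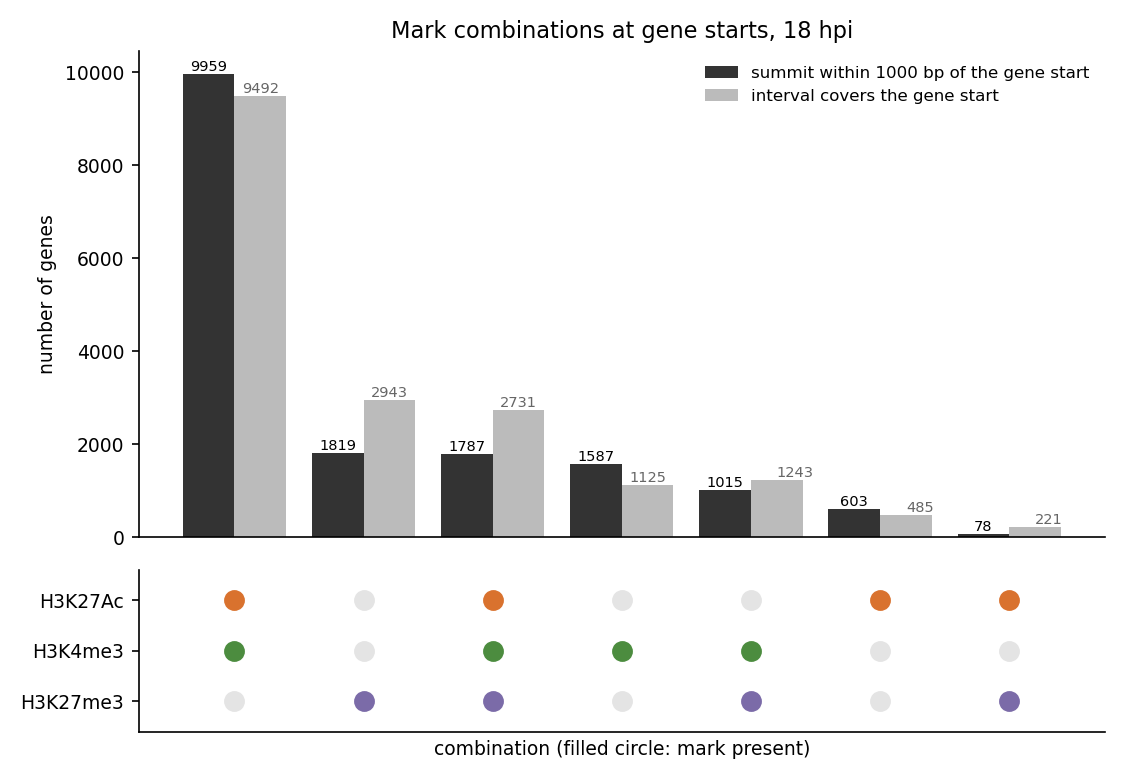
Number of genes (vertical axis) with each combination of marks at the gene start at 18 hpi, by summits within 1000 bp (dark bars) and by intervals that cover the start (light bars); the filled circles underneath show which marks make up each combination. H3K27Ac with H3K4me3 was the commonest combination by either rule (9959 and 9492 genes), and H3K27me3 alone had 1819 genes by summit and 2943 by cover.

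The summits lay on the same side in every combination with H3K4me3: 88.5% to 92.0% of the H3K4me3 start summits were downstream of the gene start, at a median of 183 to 214 bp. In the H3K4me3 and H3K27me3 combination, the H3K4me3 interval lay wholly inside the H3K27me3 interval at 88.5% of genes, with a median of 128 bp between the summits. The rule favours a short distance, since it puts both summits within 1000 bp of the same start. At starts with all 3 marks the H3K4me3 interval was inside the H3K27me3 interval at 61.1% of genes and held it at 9.23%. Median lengths of H3K4me3 and H3K27me3 start intervals were 1600 and 5800 bp in the first combination. With all 3 marks they were 2600 and 4800 bp, and the part of length in the nesting was not tested.

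H3K4me3 and H3K27Ac were strongest where they occurred together without H3K27me3, whereas H3K27me3 differed little between combinations. H3K4me3 at gene starts had a median average pileup of 42.0 with H3K27Ac, 27.6 with both other marks, 16.3 alone and 15.0 with H3K27me3. The range between quartiles was 31.4 to 53.6 with H3K27Ac and 11.2 to 20.9 with H3K27me3, and these ranges did not overlap. H3K27Ac at gene starts had a median of 22.8 with H3K4me3, 16.3 in all 3 marks, 15.7 alone and 14.1 with H3K27me3. H3K27me3 stayed between a median of 11.02 with H3K27Ac and 11.9 with H3K4me3. These are descriptions over genes of 1 library per mark, and neighbouring genes can share an interval. Alone is by summit here, and fewer of these genes were alone by cover (688 of 1512 placed for H3K4me3, 221 of 585 for H3K27Ac).

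**Figure D2:**
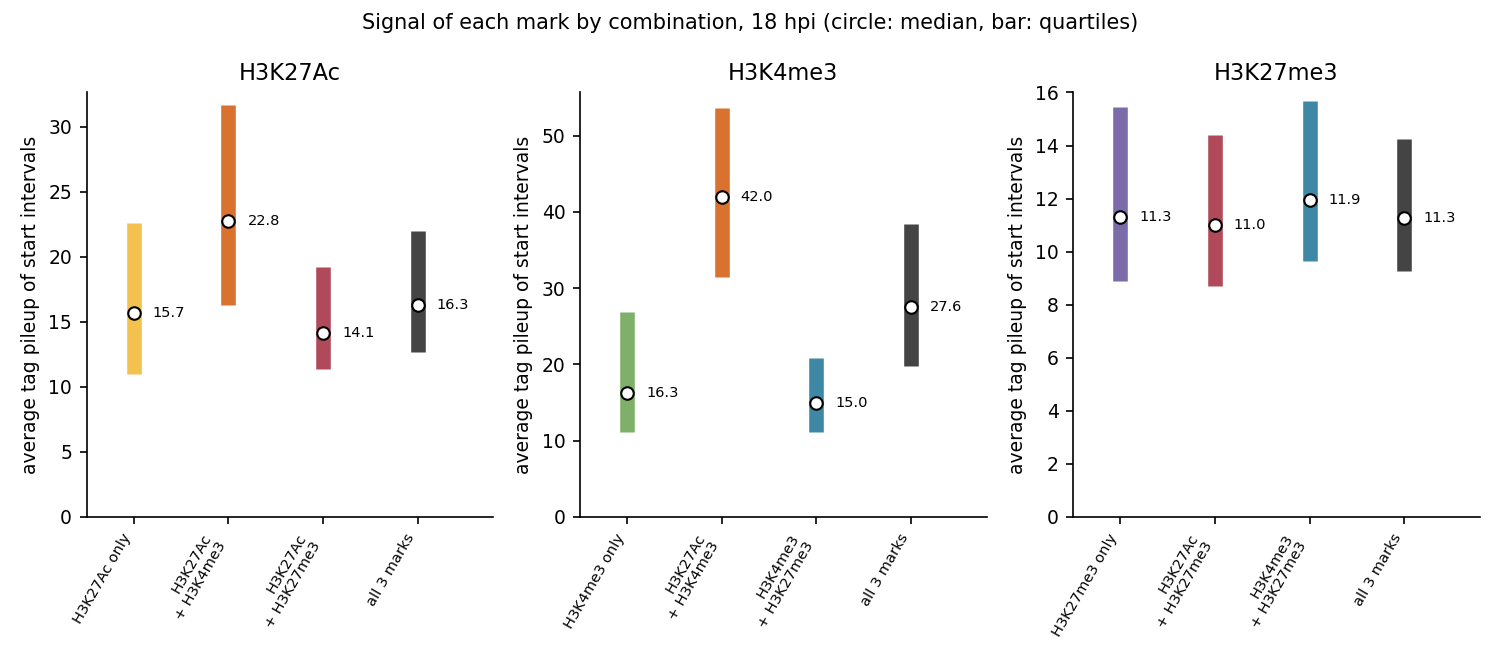
Average tag pileup (vertical axis, not comparable between marks) of the start intervals of each mark in each combination at 18 hpi; circles are medians and bars run from the lower to the upper quartile over intervals. H3K4me3 spans medians of 15.0 to 42.0, while H3K27me3 stays between 11.02 and 11.9.

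The same start intervals were also viewed the other way, with the genes of a mark ordered by its strength and cut into 5 equal groups. This is another view of the same values and no separate evidence. In the group with the weakest H3K4me3, 41.3% also had H3K27Ac and 40.5% had H3K27me3; in the group with the strongest H3K4me3, 96.9% had H3K27Ac and 5.61% had H3K27me3. For H3K27Ac, the share with H3K27me3 was 26.2% in the weakest group and 4.99% in the strongest. By cover, the share of starts under H3K27me3 was 53.2% in the weakest and 9.74% in the strongest group of H3K4me3. Ordered by H3K27me3, the share with H3K4me3 was lowest at both ends (53.2% and 55.0%) and 62.1% to 64.3% between them.

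**Figure D3:**
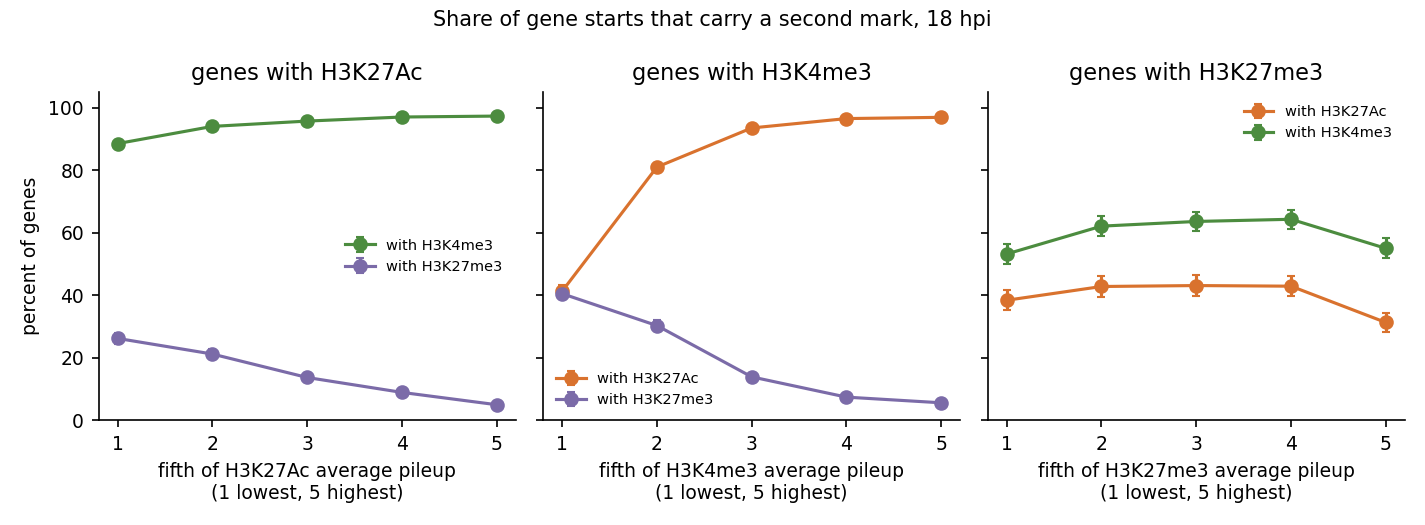
Percent of genes (vertical axis) that carry a second mark at their start, for genes split into 5 equal groups by the average pileup of H3K27Ac, H3K4me3 or H3K27me3 (horizontal axes, weakest group first); bars are exact 95% binomial intervals. The share with H3K27me3 is 40.5% in the weakest H3K4me3 group and 5.61% in the strongest, and the share with H3K27Ac is 41.3% and 96.9%.

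CpG islands, clusters of CpG dinucleotides that the authors counted in each interval, were a feature that the rule did not use. H3K4me3 start intervals held an island in 38.4% (36.1 to 40.8) of cases with all 3 marks and 33.1% (30.1 to 36.1) with H3K27me3, against 22.3% (21.4 to 23.2) with H3K27Ac and 14.6% (12.8 to 16.4) with H3K4me3 alone. The combinations are by summit here. Interval length moved with the share that held an island, so the intervals were compared within 3 groups of length. In the shortest group (200 to 2200 bp) the shares were 36.4% with all 3 marks and 31.5% with H3K27me3, against 14.6% with H3K27Ac and 8.84% alone. In the middle group (2400 to 3600 bp) they were 36.1% with all 3 marks and 38.4% with H3K27me3, against 19.6% with H3K27Ac and 16.5% alone. In the longest group (3800 to 18000 bp) H3K4me3 with H3K27me3 and H3K4me3 with H3K27Ac had the same share, 31.0%, and all 3 marks had 44.9%. The first of these shares rests on only 84 intervals (21.3 to 42.0), the second on 3195 (29.4 to 32.6). H3K4me3 alone had 29.2% (24.2 to 34.7) in the longest group, near the share with H3K27me3.

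Away from gene starts the lists separated. Of the 17446 H3K27Ac intervals with no summit within 1000 bp of a start, 72.8% met no other mark, against 1.98% of the 11518 at starts. Of the 10191 H3K27me3 intervals away from starts, 66.1% met no other mark, against 31.2% of the 4569 at starts. Away refers to the summit here, so such an interval can still cover a start. Of the 7138 starts covered by H3K27me3, only 61.9% had its summit within 1000 bp. H3K4me3 away from starts was mostly in company: of 4166 such intervals 20.7% were alone, 50.5% met H3K27Ac, 9.19% met H3K27me3 and 19.6% met both.

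The genes strongest in each combination were taken by average pileup, and for combinations of several marks by the mark in which the gene ranked lowest among all start intervals of that mark. The ranking depended on the measure: of 42 places named in this way, 11 were also named when maximum pileup was used. Among genes with H3K27me3 alone, hoxa11b on chromosome 16 stood first with an average pileup of 64.8, inside an interval at chr16:21082601-21131800 (danRer10, counted from 1). It was followed by pax8, a paired-box factor of kidney and ear development (60.8, chr5:71640801-71645000), hoxa13a (54.5), ntrk2b, a neurotrophin receptor (51.6), hoxb8a (47.7) and zic5, a zinc-finger factor of the neural plate (44.3). Of these 6 genes, 5 had H3K27me3 alone by cover too, and ntrk2b lay under all 3 marks.

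Among genes with H3K27Ac and H3K4me3, the strongest in both was brf1a, a subunit of the RNA polymerase III initiation factor TFIIIB, with 82.7 for H3K27Ac and 108.8 for H3K4me3. The promoter shared by fam117bb and LOC103911618 had 74.4 and 125.2, and glg1a, a Golgi glycoprotein, had 80.7 and 102.1. sin3aa, a scaffold of histone deacetylase complexes, had 73.4 and 107.8, hace1, a ubiquitin ligase, had 121.7 and 101.1, and sat1a.2, a polyamine acetyltransferase, had 83.6 and 101.1. The 121.7 of hace1 was the highest H3K27Ac average in the list, over an interval of only 3 grid windows of 200 bp.

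Among genes with all 3 marks, the strongest in every mark was LOC100334776, at percentiles 99.1, 99.8 and 99.3 of the start intervals of H3K27Ac, H3K4me3 and H3K27me3. It had 66.5 for H3K27Ac, 114.2 for H3K4me3 and 39.3 for H3K27me3 in intervals near chr20:52968601-52969800. Next were slc22a23, a transporter (45.7, 76.2 and 37.4 in the same order of marks), wtip, a LIM-domain protein (38.6, 76.8 and 25.6), and flvcr1, a heme exporter (38.0, 71.5 and 30.8). cebpd, a bZIP factor of the acute response, had 37.8, 81.3 and 20.3, and mafbb, a bZIP factor of macrophages and hindbrain, had 46.2, 58.2 and 19.1. LOC100334776, slc22a23 and flvcr1 all lie on chromosome 20. As a whole, that chromosome had all 3 marks at 10.9% of its genes with a start interval, against 10.6% of all genes. The genes highest in H3K27me3 among those with all 3 marks were developmental factors: foxd3 had 51.1 for H3K27me3, 23.9 for H3K4me3 and 9.73 for H3K27Ac, six3a had 45.6, 12.3 and 12.9, and foxc1b had 45.6, 39.8 and 18.7. LOC103911248 shares the intervals of foxd3.

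In the H3K4me3 and H3K27me3 combination, the gene strongest in both was fzd8a, a Wnt receptor, with 65.5 for H3K4me3 and 28.0 for H3K27me3. LOC101886377 had 61.5 and 17.9, dbpa, a bZIP factor of clock output, had 47.2 and 15.4, rorab, a nuclear receptor, had 62.6 and 14.1, angptl4, an inhibitor of lipoprotein lipase, had 45.3 and 19.5, and leprel2, a collagen prolyl hydroxylase, had 46.1 and 13.5. By cover LOC101886377 and leprel2 kept this combination; fzd8a, dbpa and angptl4 lay under all 3 marks, and rorab under H3K27Ac and H3K4me3. At the other end, hoxc5a had strong H3K27me3 (53.5) and weak H3K4me3 (12.5), and hoxd11a had H3K27me3 of 54.3 with H3K4me3 at percentile 7.40.

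**Figure D4:**
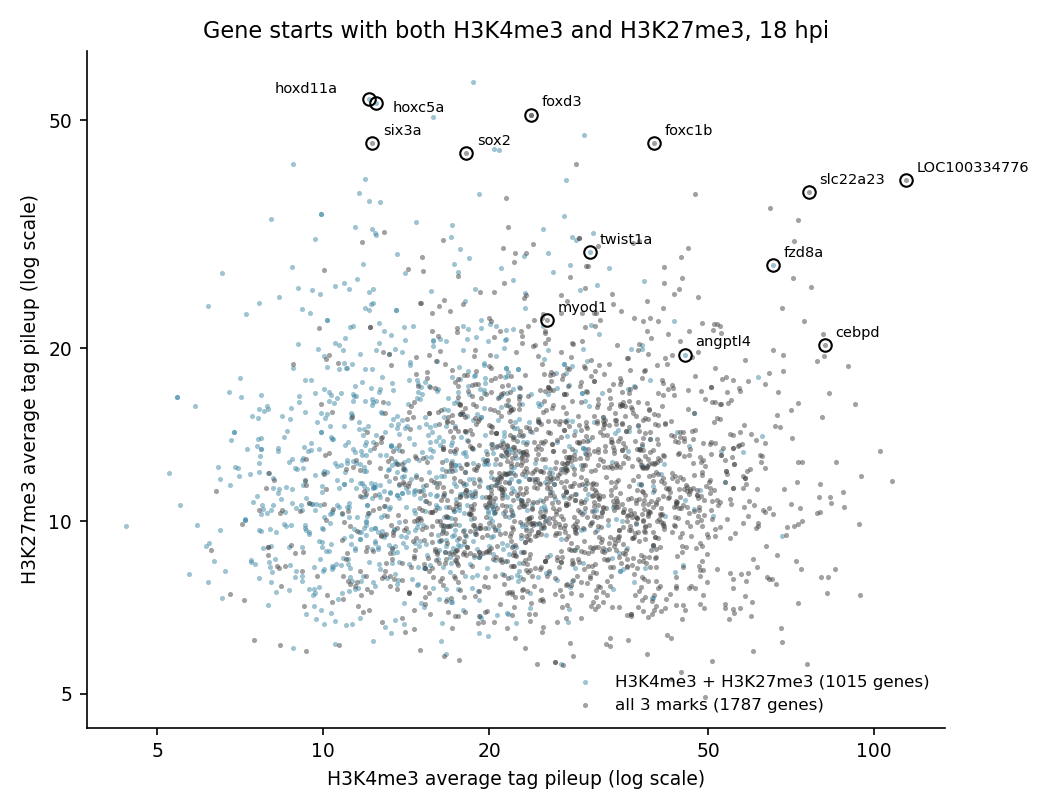
Average tag pileup of H3K4me3 (horizontal, log scale) and H3K27me3 (vertical, log scale) at each gene start with both marks at 18 hpi, with all 3 marks (dark) or without H3K27Ac (blue); circles mark genes named in the text. fzd8a (65.5 and 28.0) and LOC100334776 (114.2 and 39.3) are high in both marks, whereas hoxc5a (12.5 and 53.5) is high in H3K27me3 only.

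The 78 genes with H3K27Ac and H3K27me3 but no H3K4me3 summit depended on the summit rule. The strongest by both marks were otud1, a deubiquitinase (41.7 for H3K27Ac and 15.6 for H3K27me3), bag3, a co-chaperone of the muscle Z-disc (30.4 and 16.8), kcnc1b, a potassium channel (31.0 and 15.1), insm1a, a zinc-finger factor of endocrine and neural cells (28.3 and 13.7), sowahd (26.3 and 17.3) and bbx (26.5 and 12.13). junba, an AP-1 subunit, had the highest H3K27Ac of the group (58.5, with 9.55 for H3K27me3), and bmi1a, a Polycomb component, the highest H3K27me3 (36.2, with 10.9 for H3K27Ac). Of 10 named genes of this combination, only isl1, a LIM-homeobox factor of motor neurons (6.48 and 28.3), kept it by cover; kcnc1b lay under H3K27me3 alone and the others under all 3 marks. Over the whole combination 77 genes could be placed, of which 36 kept it and 28 lay under all 3 marks.

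Single active marks also depended on the rule, both at high strength and over the whole combinations. Of the placed genes with H3K4me3 alone by summit, 688 of 1512 kept it by cover. Of those with H3K27Ac alone by summit, 221 of 585 kept it. The strongest with H3K4me3 alone were tfap4 (142.2), phf20b (137.8), LOC794214 (120.0), wee1, a kinase that holds back entry into mitosis (112.2), anp32b (111.6, shared with si:dkey-25o16.2) and ppargc1b (109.4). By cover only anp32b and si:dkey-25o16.2 kept H3K4me3 alone; tfap4, phf20b, wee1 and ppargc1b lay under H3K27Ac as well, and the start of LOC794214 under no interval. The strongest with H3K27Ac alone were cfap99 (81.9), ube2b (79.5), ap2a1 (71.8), hnrnpa0l (70.4), taf4 (68.7) and tmcc1b (61.6), and none of these 6 kept it by cover. All lay under H3K4me3, and cfap99 under H3K4me3 only.

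Gene lists by function are described by counts of members beside all genes, with no test. Of the 49 listed HOX genes, which give cells their position along the body axis, only 10 had a summit of any mark within 1000 bp of the start, against 16848 of the 23811 listed genes. Whole stretches of the clusters lay under single H3K27me3 intervals. By cover, 40 of 40 placed HOX genes had H3K27me3, against 39.1% of all placed genes with a mark: 35 had it alone, 4 (hoxb5a, hoxc5a, hoxd10a and hoxd11a) with H3K4me3, and hoxb4a with both other marks. These 40 starts lie in 11 intervals and are not 40 independent observations. The hoxc interval at chr23:35906401-36052000 was the longest in the H3K27me3 list (145600 bp, average pileup 53.5) and the hoxb interval at chr3:23554801-23663000 the second longest (108200 bp, 47.7). The hoxa interval of chromosome 16 had the highest average pileup of these 11 (64.8). Inside the hoxb interval, H3K4me3 covered 4.8 kb and H3K27Ac 1.2 kb of the 108200 bp; at hoxb4a these had average pileups of 29.7 and 16.9. The 9 remaining HOX genes could not be placed. Placement depended in part on cover itself, so the 40 of 40 does not extend to these 9.

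Developmental transcription factors outside the HOX clusters also lay under H3K27me3, more of them together with other marks. By summit, 47 of 69 with any mark had H3K27me3 (68.1%, against 27.9% of all genes), 27 of them alone, and the median average pileup of that mark was 28.8 against 11.4 over all genes. By cover, all 120 starts with a mark had it, and 5 more placed starts lay under no interval. Of the 120, it was found at 72 alone, at 20 with H3K4me3, at 26 with both other marks and at 2 with H3K27Ac. emx2 (41.4) and otx2b (40.0), factors of the forebrain, had H3K27me3 alone, and en2a, of the midbrain boundary, had 50.7 with H3K4me3 of 15.8. Of the 14 factors with H3K4me3 alone by summit, 12 lay under H3K4me3 with H3K27me3 by cover and 1 under all 3 marks. Over all placed genes with H3K4me3 alone by summit, these numbers were 222 and 91 of 1512. A further 28 of the 1512 lay under H3K27me3 alone and 5 under H3K27Ac with H3K27me3. Signalling genes of the Wnt, Notch and hedgehog pathways had H3K27me3 at 45 of 48 starts by cover (93.8%), against 39.1% of all placed genes with a mark, among them the ligands wnt9b (22.4), wnt3a (21.0) and wnt7aa (19.2). Of the fibroblast growth factor list, 26 of 34 had it, while the feedback inhibitors dusp6 (24.8 for H3K27Ac and 80.9 for H3K4me3), spred1 (41.5 and 73.2) and spry4 (31.1 and 52.0) had H3K27Ac and H3K4me3 only.

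Pluripotency and reprogramming factors were divided. pou5f3 (22.0), nanog (8.96) and prdm14 (31.2), factors of the early embryo, had H3K27me3 alone, and sox2, klf4 and myca had all 3 marks. mycb, with 40.5 for H3K27Ac and 85.4 for H3K4me3, and stat3, with 33.4 and 52.0, had H3K27Ac and H3K4me3. Of the list, 9 of 11 starts with a mark had H3K27me3 by cover, against 39.1% of all placed genes with a mark, and 7 of 10 by summit, against 27.9% of all genes.

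Most genes of general upkeep had H3K27Ac with H3K4me3, the combination found at 59.1% of all genes by summit and 52.0% by cover. Of ribosomal protein genes, 69 of 74 (93.2%) had this combination by summit and 72 of 74 by cover; rpl31 had 59.96 for H3K27Ac and 78.6 for H3K4me3. It was found at 54 of 62 genes of oxidative phosphorylation (87.1%), such as the complex III subunit uqcrc1 (57.1 and 62.6), and at 27 of 31 of autophagy and the lysosome (87.1%), such as foxo1a (52.1 and 93.8), a transcription factor that activates atrophy genes. Of the modifiers of these marks themselves, 34 of 41 (82.9%) had it, among them the H3K27 methyltransferase ezh2 (48.6 and 72.5), the acetyltransferase crebbpa (47.7 and 89.4) and the H3K4 demethylase kdm5c (61.5 and 75.5). Of clock genes, 17 of 22 (77.3%) had it by summit and 21 of 23 by cover, with tefb highest (69.03 and 83.4).

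Immediate early and stress factors, which cells switch on within minutes of a stimulus, had strong active marks. By cover 33 of 33 had H3K27Ac, against 70.9% of all placed genes with a mark. H3K27me3 lay at 12 of 33 (36.4%), near the 39.1% of all placed genes with a mark, and these 12 had all 3 marks, against 15.0%. By summit H3K27me3 was at 6 of 32 (18.8%), against 27.9% of all genes. Their median average pileup was 32.3 for H3K27Ac and 55.1 for H3K4me3, against 21.3 and 36.6 over all genes. jund (61.2 and 88.7) and fosl2 (60.1 and 82.3), AP-1 subunits, had H3K27Ac and H3K4me3 only, and egr3 had 13.5 and 37.5 with H3K27me3 of 30.8. Of inflammation genes, 15 of 30 (50.0%) had H3K27Ac with H3K4me3 by summit, against 59.1% of all genes. By cover 21 of 36 had this pair, against 52.0% of all placed genes with a mark. Their median average pileup was 16.2 for H3K27Ac and 31.7 for H3K4me3, below the medians of all genes. H3K27Ac lay at 20 of 30 by summit (66.7%, against 73.8%) and at 28 of 36 by cover (77.8%, against 70.9%). Among the strongest members with the active pair were nfkb1 (41.1 and 75.1) and ccl19a.1 (58.7 and 52.4). The chemokine receptor cxcr4a had H3K4me3 (28.8) and H3K27me3 (31.0), and mmp9, a matrix protease, had H3K27me3 alone (8.91).

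Cell cycle genes were the list with the largest share of H3K4me3 alone among those with more than 20 members with any mark: 17 of 41 (41.5%), against 9.42% of all genes. By cover 13 of 40 had it, against 6.17% of all placed genes with a mark. The members with H3K4me3 alone by both rules were mcm2, mcm3, cdc6, cdt1 and gins2, which load or run the replication helicase, tyms of nucleotide supply, the proliferation marker mki67, and ccnb2, aurkb, bub1, kif11 and kif23 of mitosis. In the same list pcna (36.1 and 63.4), rb1 (55.3 and 45.6) and the inhibitor cdkn1bb (43.1 and 76.3) had H3K27Ac and H3K4me3.

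The label of the tissue, which names adult muscle cells, was set beside markers of muscle, and at most of these no active pair of marks was seen. Of 43 listed genes of the sarcomere and contraction, 18 had a summit of any mark within 1000 bp of the start and 25 had none. Over all listed genes, 16848 of 23811 had such a summit. Of the 18 genes, 5 had H3K27Ac (27.8%), against 73.8% of all genes. By cover, 15 of 40 placed starts lay under no interval, among them acta1b, mylpfb and ryr1b, against 4767 of 23007 over all placed genes, and 8 of 25 with a mark had H3K27Ac (32.0%), against 70.9%. The median average pileup of the members with H3K4me3 was 10.2, against 36.6 over all genes. H3K27me3 was found at 9 of the 18 genes by summit (50.0%), against 27.9% of all genes. By cover it lay at 16 of 25 starts with a mark (64.0%), 9 of them without another mark, against 39.1% of all placed genes with a mark. Skeletal actin acta1a had H3K4me3 (19.7) with H3K27me3 (13.3), actn3a had 12.8 and 17.8, and neb had H3K4me3 alone (11.1); desma (6.98 and 10.3) and cmya5 (14.7 and 16.7) had H3K27Ac and H3K4me3. Of the energy supply of muscle, 6 of 8 starts with a mark had H3K27Ac by cover, against 70.9% of all placed genes with a mark. H3K4me3 lay at 3 of these 8 (37.5%), against 80.0%, and a further 5 placed starts lay under no interval. By summit 4 of 13 listed members had a start interval, against 16848 of 23811 over all listed genes. The starts of the muscle creatine kinases ckma and ckmb lay under H3K27Ac alone.

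Among the regulators of muscle identity, myod1 had all 3 marks (10.4 for H3K27Ac, 25.5 for H3K4me3 and 22.4 for H3K27me3), as had six1b (30.03, 27.6 and 16.7) and six4b (19.3, 30.9 and 11.7), whose proteins act upstream of the myogenic factors. myog (15.0) and myf6 (12.09) had H3K4me3 alone by both rules, whereas myf5, pax3a and pax3b had no start summit and lay under H3K27me3 alone. The satellite cell factor pax7a had weak H3K4me3 (4.92) and lay under H3K27me3 by cover. By summit, pax7b had H3K4me3 of 10.2, and mstnb, the growth inhibitor myostatin, had H3K27me3 alone (18.1). Of the 7 regulators with H3K4me3 alone by summit, 2 kept it by cover. Of the others, 2 lay under H3K27me3 as well, 2 under H3K27Ac as well, and 1 could not be placed. mef2d had 17.5 for H3K27Ac and 46.5 for H3K4me3. By summit 7 of 20 regulators had H3K27me3 (35.0%), against 27.9% of all genes, and by cover 16 of 23 with a mark (69.6%), against 39.1% of all placed genes with a mark.

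Markers of other cell types carried H3K27Ac at a share near or below that of all placed genes with a mark (70.9%). By cover, H3K27Ac lay at 19 of 28 leukocyte starts, 10 of 18 endothelial, 10 of 18 fibroblast and tendon, 8 of 15 nerve and Schwann cell and 2 of 14 erythrocyte starts with a mark, and at 6 of 15 in the list of retina, epidermis and bone. spi1b, the myeloid master factor, had 19.6 for H3K27Ac and 30.9 for H3K4me3, and krt8, an epithelial keratin, had 31.3 and 63.0. The pan-leukocyte gene ptprc and the neutrophil gene mpx were among 6 placed leukocyte starts with no mark, beside the 28 with a mark. Over all placed genes, 4767 of 23007 had none. Of the 28 leukocyte starts, 10 had H3K27Ac with H3K4me3, against 52.0% of all placed genes with a mark. Globin hbba2 had H3K4me3 (9.68) under H3K27me3 (31.1), and the photoreceptor genes rho, gnat1 and crx lay under H3K27me3 alone. twist1a, a mesenchymal factor, had 30.5 for H3K4me3 and 29.4 for H3K27me3 and no H3K27Ac, and vim, a mesenchymal filament gene, had all 3 marks (50.4 for H3K27Ac, 38.1 for H3K4me3 and 22.4 for H3K27me3). Which cells of the pool carried which mark was not tested.

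Genes of the matrix and of epithelial-mesenchymal transition had all 3 marks at 14 of 28 starts by cover, against 15.0% of all placed genes with a mark; itga5, a fibronectin receptor subunit, had 19.1 for H3K27Ac, 49.0 for H3K4me3 and 10.2 for H3K27me3, and snai1a, a zinc-finger repressor, had 17.04, 27.4 and 16.6. Genes of the cytoskeleton and migration had H3K27Ac with H3K4me3 at 17 of 25 starts by cover, against 52.0% of all placed genes with a mark, and at 14 of 25 (56.0%) by summit, near the 59.1% of all genes, with tmsb4x, which binds actin monomers, at 43.0 and 75.7.

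**Figure D5:**
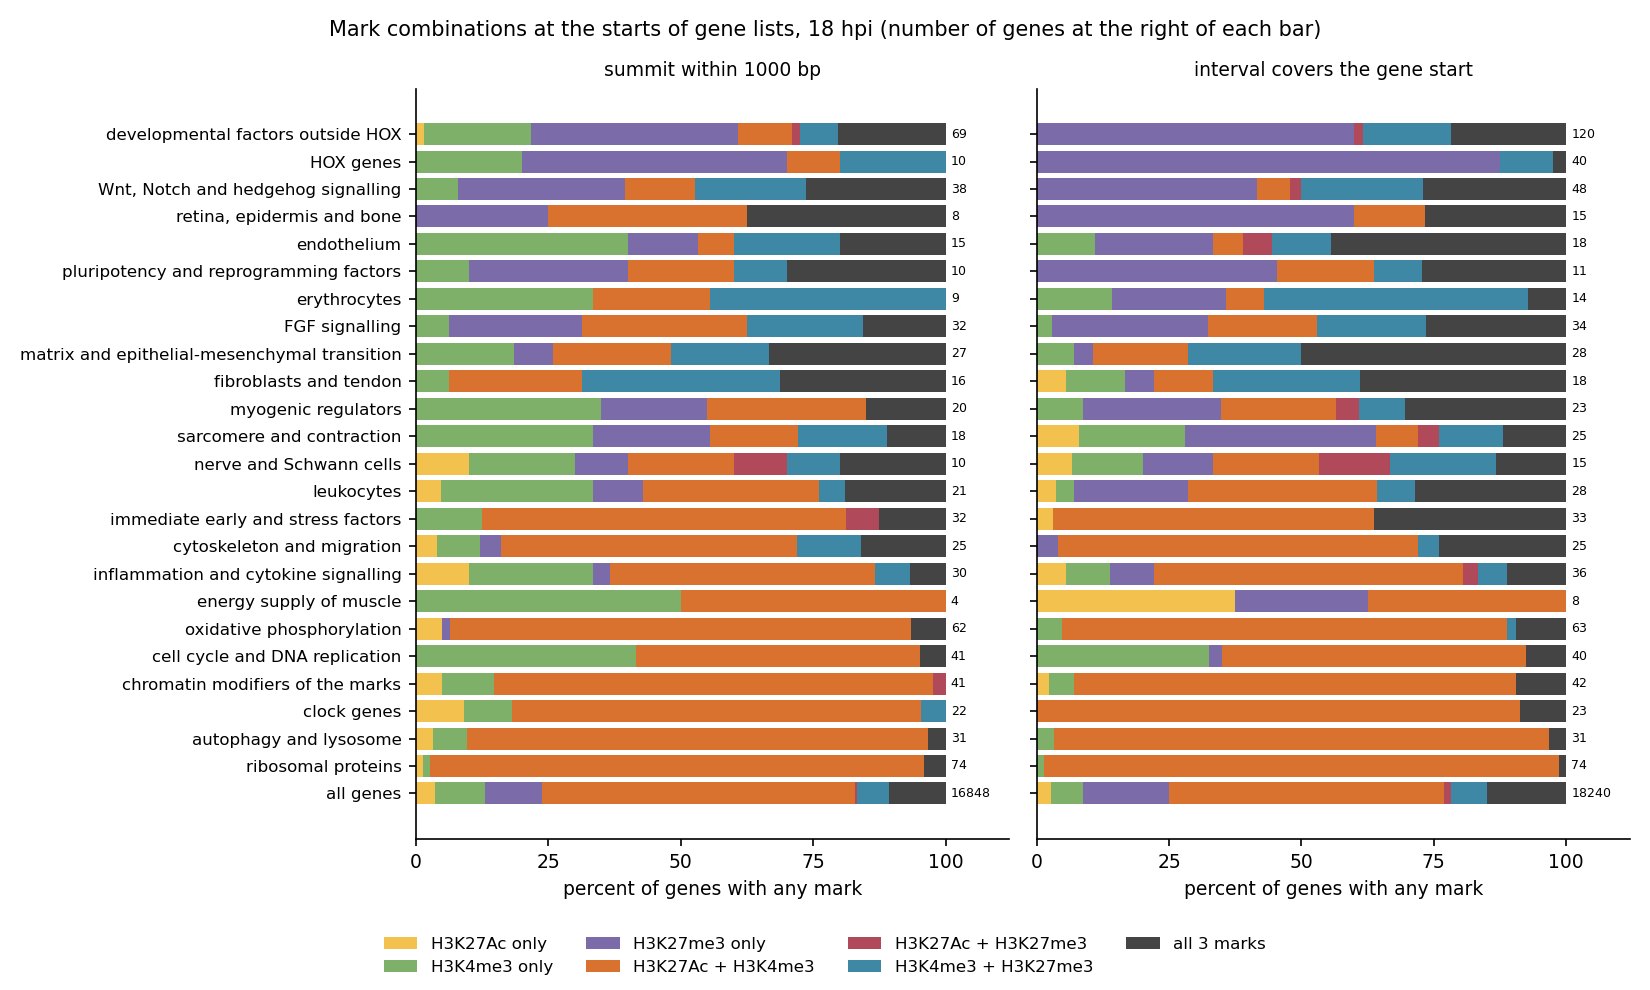
Percent of the genes with any mark (horizontal axes) in each combination, for 24 gene lists with all genes at the bottom, by summits within 1000 bp (left) and by intervals that cover the start (right); the number of genes stands right of each bar. Ribosomal protein genes are almost wholly H3K27Ac with H3K4me3 (69 of 74 by summit), and HOX genes and developmental factors are under H3K27me3 at every placed start with a mark by cover (40 and 120 genes).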

How the data were processed

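The submitters' processing notes name the build danRer10 and the tools SICER 12.1, MACS2 2.1.0 and BWA, without their roles. The authors deposited 1 interval list per library with the average and maximum tag pileup (signal), CpG island counts, gene names and distances to gene starts; how libraries were scaled to each other was not stated. Intervals lie on a 200 bp grid. Average times number of bins was whole in 100% of intervals of at most 100 bins, within 0.0006 per bin. Positions are printed counting from 1. Columns with no matching sample numbered 0. The input and the control and 9 hpi libraries were not used here.

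Groups came from the sample titles. Overlap meant at least 1 bp. A gene's start interval was that with the smallest absolute distance, up to 1000 bp, which the files count from the summit. Start positions were solved from summits and distances: 20472 genes had a single solution, 2535 of 3090 genes with 1 record had the same cover at both possible positions, and 249 conflicted. This rule was added after the data were seen. Percentiles of average pileup ran over all genes with a start interval of the mark. Named genes were the 6 strongest per combination, the 3 highest per mark in combinations of several marks, and members of the 24 lists: up to 4 in the commonest combination, up to 3 in each rare one, and any of the myogenic and HOX lists. Genes named outside this rule, such as ptprc, mpx, rho, gnat1, crx, ckma, acta1b, mylpfb, ryr1b, sox2 and klf4, were chosen after their marks were seen. Members and lists were chosen with earlier results of these data known. List members were matched by symbol or RefSeq synonym, and 903 of 955 were listed. The counting steps were tested on simulated data. Python 3.11.15, pandas 2.3.3, numpy 2.4.6 and SciPy 1.17.1 were used. No test was possible with 1 library per mark, and base composition was not analysed here.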

Additional observations from a re-analysis of the deposited data

How the results depend on the processing

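Each mark has 1 library and tag numbers are unknown, so neither replicate error nor depth can be given, and no library could be left out. No paired analysis was possible because each mark has 1 library and no test was made. Base composition by combination was not run. An overlap of 200 bp gave the same shares, which the 200 bp grid fixes in advance, so it is no check. With a demand that start intervals overlap, H3K27Ac with H3K4me3 held 9933 genes and H3K27Ac with H3K27me3 held 77. H3K4me3 with H3K27me3 then held 1012 and all 3 marks held 1743. The summit rule favours such overlap, so that demand is no check either. It cannot change the combinations of 1 mark. The 6 overlap shares (H3K27Ac with H3K4me3, H3K27Ac with H3K27me3, H3K4me3 with H3K27Ac, H3K4me3 with H3K27me3, H3K27me3 with H3K27Ac, H3K27me3 with H3K4me3) were 49.6, 16.5, 81.3, 26.9, 29.8 and 30.5% when 50% of the shorter interval had to be shared. They were 55.1, 18.3, 89.1, 26.8, 33.0 and 30.5% without the weakest 25% of each list, and 73.8, 22.1, 73.4, 31.8, 21.4 and 30.2% with the strongest 14760 intervals of each. H3K4me3 alone held 1044 genes up to 5000 bp and 1039 without the weakest 25%, but 1892 up to 500 bp and 2255 with the strongest 14760 intervals of each list. H3K27Ac alone ran from 428 genes with the strongest 14760 intervals to 873 up to 500 bp. H3K27me3 alone ran from 1429 genes up to 500 bp to 2943 by cover. H3K27Ac with H3K27me3 held 186 up to 5000 bp, 267 without the weakest 25% and 221 by cover; H3K4me3 with H3K27me3 held 446 without the weakest 25%. All 3 marks held 1035 genes up to 500 bp, 5098 up to 5000 bp, 1181 with equal numbers and 2731 by cover, and H3K27me3 alone 2943 by cover. Median percentiles by maximum pileup were 22.0 (H3K27Ac alone), 56.2 (with H3K4me3), 15.9 (with H3K27me3) and 25.7 (all 3) for H3K27Ac, 11.2 (with H3K27me3) and 30.1 (all 3) for H3K4me3, and 58.2 (with H3K4me3) and 45.9 (all 3) for H3K27me3. Up to 500 bp they were 40.0 (alone), 53.7 (with H3K4me3) and 27.8 (all 3) for H3K27Ac, and 18.7 (alone), 60.6 (with H3K27Ac) and 28.6 (all 3) for H3K4me3. By summit, 51.7% of H3K27Ac, 15.7% of H3K4me3 and 46.2% of H3K27me3 intervals lay beyond 5000 bp of a start, though such an interval can still cover one. Of those, 79.2% for H3K27Ac and 75.3% for H3K27me3 were alone. Of 42 places named as strong in every mark, 11 were also named by maximum pileup. By cover, H3K27me3 lay at 69.6% of myogenic, 57.1% of leukocyte, 83.3% of endothelial, 100.0% of HOX, 100.0% of developmental and 93.8% of Wnt, Notch and hedgehog genes. Over all placed genes with a mark this share was 39.1%. The part of interval width in these shifts was not tested.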

Other observations

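A stretch of chromosome 4 stood apart in the combinations. Between 30 and 70 Mb, a stretch chosen after the values were seen, 50 of 58 genes with a start interval had H3K4me3 alone (86.2%, exact 95% interval 74.6 to 93.9), and the other 8 had H3K27Ac with H3K4me3. Between 0 and 30 Mb of the chromosome H3K4me3 alone was found at 38 of 460 genes (8.26%), and beyond 70 Mb at 13 of 95 (13.7%). The median average pileup of H3K4me3 was 13.9 in the stretch, against 36.3 before it and 33.7 after it. Of the 58 genes, 57 carry provisional names (LOC, zgc, si or wu), as do 78 of the 95 genes beyond it and 108 of the 460 before it, and whether near-identical copies share reads there was not tested. No start interval of H3K27me3 was seen in the stretch.

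Chromosome 22 had the smallest share of starts with H3K4me3 and H3K27me3 (3.08%) and with all 3 marks (5.83%) of the 25 chromosomes, with 617 genes.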
